A study of Mesocricetus auratus with 6 samples.

Results

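The genes described here encode the machinery that builds and holds mitotic chromosomes in BHK21 cells: the centromere and kinetochore, the spindle checkpoint, and the SMC complexes cohesin, condensin and SMC5/6. They were chosen by symbol, as all genes named Cenp plus 1 letter (19 genes) and 39 further names, 58 in all. Of the 58, 57 were found among the 16078 listed genes, and Pmf1 matched no symbol and was not analysed here. The minimum for testing was a group mean of 1 FPKM in either group, which 55 of the 57 reached. FPKM is the number of fragments per kilobase of transcript, scaled to the number of mapped fragments, so levels can be compared between genes.

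BHK21 is an established fibroblast-like line from baby hamster kidney (golden hamster, Mesocricetus auratus). All 6 libraries came from BHK21 cells transfected as follows: 3 with the empty mammalian expression vector pCMV-Myc (vector 1 to 3) and 3 with STYK1/NOK, a membrane protein with a kinase-like domain that the series title calls an oncogene (STYK1 1 to 3). RNA was taken 48 after transfection, with no unit given, and 1 ug of total RNA went into each library. The labels give the tissue as kidney and an age of one day, and do not say whether the STYK1/NOK sequence was that of hamster or which share of the cells was transfected. Nothing there says that the 3 libraries of a group are independent cultures, and p-values then reflect only how these libraries scatter, which may be technical.

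A kinetochore is the protein assembly on which spindle microtubules pull chromosomes apart. The histone variant CENP-A marks the centromere, a network of CENP proteins sits on it through the whole cell cycle, and the outer kinetochore, with the NDC80, MIS12 and KNL1 modules, is the part that grips microtubules. SMC complexes are rings built on paired ATPases of the structural maintenance of chromosomes family: cohesin holds sister chromatids together and forms loops in interphase, condensin compacts chromosomes for mitosis, and SMC5/6 acts in DNA repair and replication. Many kinetochore, checkpoint and condensin genes are transcribed mainly from late S phase to mitosis in dividing cells, whereas cohesin is made and used throughout the cell cycle.

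Vector 1 stood apart from the other libraries, with Pearson correlations of 0.963 to 0.976 to them on log2(FPKM + 1), against 0.988 to 0.993 among the other 5. The FPKM values summed to between 528160 and 619840 per library, and read totals are not known here, so values carry no counting interval. Styk1 (Gene ID 101839917) is the hamster gene, and whether its values include the transfected sequence is not known. It measured 1.5, 1.80 and 1.89 FPKM in vector 1, 2 and 3. In STYK1 1, 2 and 3 it measured 2.04, 2.46 and 2.41 FPKM. All 3 STYK1 libraries lay above the vector libraries, but the difference did not pass the test (limma-trend adjusted p = 0.470), and an exact two-sided permutation test gave p = 0.1, the smallest that 3 against 3 libraries allow. Direction below is therefore given by the libraries' labels. Of the mesenchymal markers, Vim (3650.3 to 4141 FPKM), Fn1 (191 to 229 FPKM) and Pdgfrb (35.2 to 39.2 FPKM) were high, while Col1a1, Col1a2, Col3a1 and Thy1 were at or under 1.02 FPKM. The 6 kidney epithelial markers found, Epcam and Cdh1 among them, summed to 0.10 to 0.35 FPKM per library. Of 6 macrophage markers, Cd68 and Cd14 were high (170 to 351 FPKM), Csf1r lay near 3 FPKM, and the defining markers Ptprc, Adgre1 and Itgam were at or under 0.16 FPKM. Of 3 endothelial markers, Cdh5 lay between 4.45 and 9.11 FPKM, with Tek and Pecam1 at or under 0.54 FPKM.

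The comparison was STYK1/NOK against empty vector. No member passed the test (limma-trend, 0 of 55, with an adjusted p of 0.469 or more and a threshold of 0.05), and none of the 11464 tested genes did (0%), so what follows describes values and counts. At an unadjusted p under 0.05 there were 9 members with the higher mean in STYK1 libraries and 0 with the lower, 16.4% of the 55, against 4.95% of all tested genes higher and 4.88% lower. The 9 were Smc5, Ska2, Cenpc, Smc6, Smc4, Cenpe, Nipbl, Wapl and Smc3, of which 6 belong to cohesin, condensin or SMC5/6. In 13 members (23.6%) all STYK1 libraries lay above all vector libraries, against 13.6% of all tested genes, and in 1 (1.82%) all lay below, against 9.44%. The median log2 difference on the log2(FPKM + 1) scale was 0.22 over the 55 members, with 46 above 0, and 0.014 over all tested genes, of which 52.7% were above 0. That scale understates the change of genes with few FPKM, while folds are ratios of mean FPKM.

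Much of that median rested on vector 1. Vector 1 was the lowest of the 6 libraries for 43 of 55 members (78.2%), against 36.2% of all tested genes. It was the highest for 4 (7.27%), against 37.1% of all tested genes. Without it, the median of the members was 0.059, with 36 of 55 above 0, against 0.019 over all tested genes, of which 55.6% were above 0. The 9 members at an unadjusted p under 0.05 without vector 1 (16.4%, against 4.91% of all genes higher) shared 8 with those of the 6 libraries: Stag2 came in and Wapl left. Cenpu was not tested with all libraries. Without vector 1 it reached the minimum level only through vector 2 and 3 (1.58 and 0.54 FPKM, against 0.55, 0 and 0 with STYK1). It then made 1 member at an unadjusted p under 0.05 on the lower side, against 4.57% of all genes. Because the minimum was met only in the group where Cenpu was high, that count says nothing on its direction. By member, 32 had a log2 difference smaller by over 1.5 times without vector 1, 10 had the other sign, 7 lay within 1.5 times and 6 were larger by over 1.5 times. The 10 were Cenpa, Cenph, Cenpk, Nuf2, Spc25, Dsn1, Mis12, Ska3, Bub3 and Mad2l1, all below 0 without vector 1. Leaving out another library moved the count with the higher STYK1 mean at an unadjusted p under 0.05 in the same direction among the members and among all genes. Without STYK1 1 there were 2 members higher and 0 lower, against 1.44% and 1.65% of all genes. Without STYK1 2 there were 6 and 0, against 1.83% and 3.18%. Without STYK1 3 there were 5 and 1, against 2.92% and 3.26%. Without vector 2 there were 11 and 1, against 6.83% and 5.94%. Without vector 3 there were 17 and 0, against 7.86% and 7.02%.

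Cycling genes varied between libraries in a like way. Of 19 general markers of dividing cells, such as Mki67, Top2a, Ccnb1 and Cdk1, 18 had the higher mean in STYK1 libraries, vector 1 was the lowest library for 17, and STYK1 2 was the lowest STYK1 library for 18. In log2 units relative to the vector mean, their mean level was -0.46, 0.17 and 0.29 for vector 1, 2 and 3, and 0.34, -0.11 and 0.36 for STYK1 1, 2 and 3. Their summed level ran from 432 to 727 FPKM in vector and from 543 to 766 FPKM in STYK1 libraries. Their median log2 difference was 0.19 with all libraries and -0.023 without vector 1. Mki67, Top2a and the spindle kinesin Kif11 had the smallest p of these genes, and Mki67 measured 15.7, 26.9 and 30.15 FPKM with vector and 34.8, 25.1 and 36.1 FPKM with STYK1. The part of the cycling level in the members' values was not tested. In bulk RNA, fewer cells in S phase to mitosis and less RNA per such cell cannot be told apart.

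**Figure D1:**
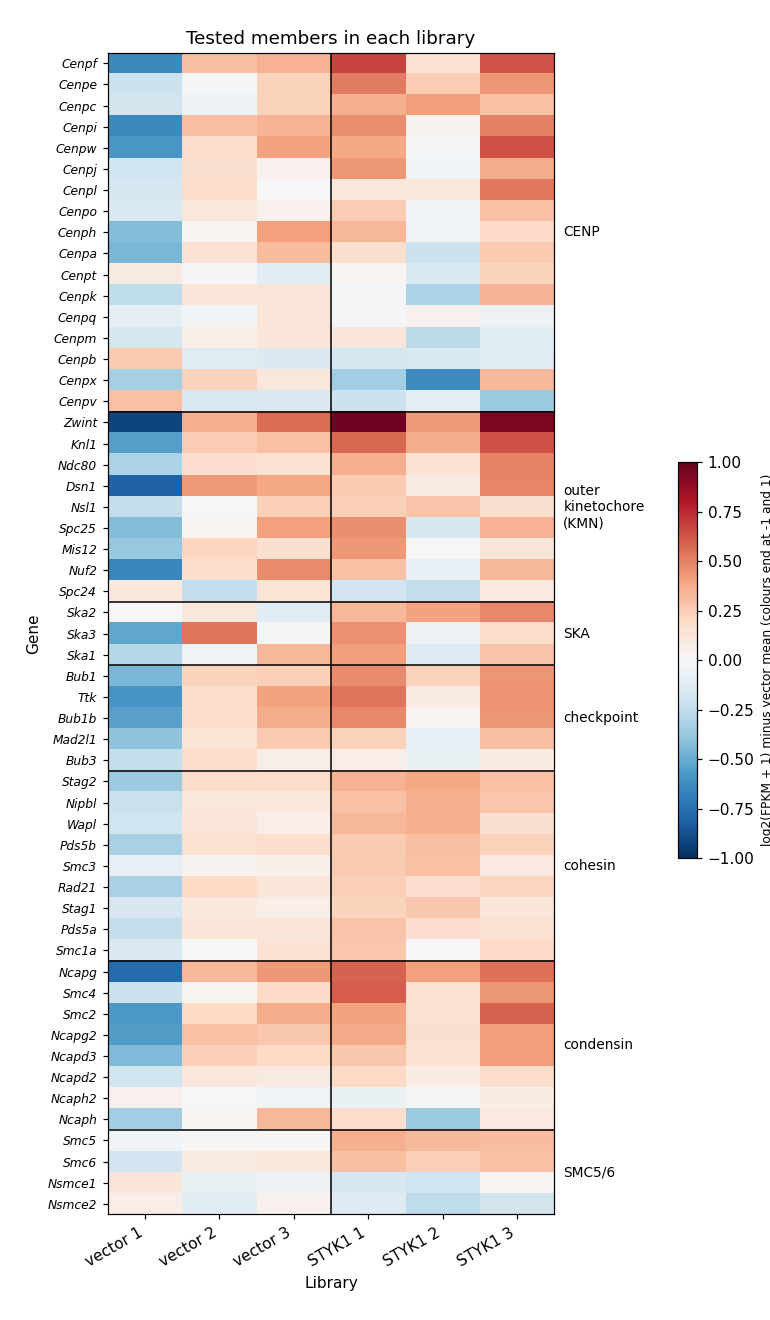
Each row is 1 of the 55 tested members, grouped by complex and ordered within it by the difference between the groups, and each column is a library; colour gives log2(FPKM + 1) minus the mean of the 3 vector libraries, and colours end at -1 and 1. Vector 1 is blue for most kinetochore, checkpoint and condensin genes, STYK1 2 is paler than STYK1 1 and 3 in those rows, and the cohesin rows are red in all 3 STYK1 libraries except for Smc1a in STYK1 2.

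The SMC5/6 members split into the ATPase pair and the non-SMC subunits Nsmce1 and Nsmce2. Both ATPases had the higher mean in STYK1 libraries, with groups that did not overlap (2 of 4 members, against 13.6% of all tested genes). Nsmce1 and Nsmce2 had the lower mean, with log2 differences of -0.12 and -0.19. After scaling to equal FPKM sums these were -0.0069 and -0.080. Smc5 (Gene ID 101839075), which was the member with the smallest p and ranked 51 among all tested genes, measured 16.2, 16.7 and 16.7 FPKM in vector 1, 2 and 3, against 21.45, 20.99 and 20.7 in STYK1 1, 2 and 3. The libraries of each group lay close together, and the lowest STYK1 library was above the highest vector library by more than the range of either group. Its means were 16.6 ± 0.29 against 21.05 ± 0.37 FPKM (SD, n = 3), 1.27-fold, with a log2 difference of 0.33 ± 0.086 (SE), a 95% interval of 0.13 to 0.53 and an unadjusted p of 0.00476 in limma-trend. Without vector 1 the difference was 0.32, within 1.5 times of that with all libraries.

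Smc6 (Gene ID 101834121), the partner with which SMC5 forms the ring, was the most abundant member, with 84.4, 102 and 104 FPKM in vector 1, 2 and 3, against 119, 114 and 118 in STYK1 1, 2 and 3. All 3 STYK1 libraries were above the vector libraries, of which vector 1 was the lowest. The log2 difference was 0.28 ± 0.097 (SE) (interval 0.054 to 0.50, unadjusted p = 0.0208, limma-trend) and 0.18 without vector 1. The ratio of Smc5 to Smc6 FPKM lay between 0.161 and 0.192 in the 6 libraries, and its groups overlapped.

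Nsmce2 (Gene ID 101833792), the SUMO ligase of the complex, measured 40.03, 35.05 and 39.4 FPKM with vector and 34.8, 31.7 and 33.4 FPKM with STYK1. It was the 1 member whose STYK1 libraries all lay below the vector libraries, at a log2 difference of -0.19 ± 0.091 (SE) (unadjusted p = 0.0698, limma-trend), and -0.15 without vector 1. Nsmce1 (Gene ID 101844702), the RING-type subunit, measured 64.3, 55.9 and 57.02 FPKM with vector and 52.4, 51.2 and 59.7 FPKM with STYK1, and its groups overlapped. With FPKM sums made equal, the groups of Nsmce2 overlapped as well. For the further SMC5/6 genes, all 5 searched were found and 4 were tested. Slf2 and Slf1, which recruit SMC5/6 to damaged DNA, had groups that did not overlap (2 of 4 with STYK1 higher, against 13.6% of all tested genes): Slf2 measured 4.13, 9.85 and 9.89 FPKM with vector and 12.3, 13.03 and 11.01 FPKM with STYK1, and Slf1 measured 4.57, 5.12 and 5.28 FPKM with vector and 5.61, 6.36 and 6.07 FPKM with STYK1. For Slf2 the difference was 0.63 ± 0.27 (SE) with all libraries and 0.27 without vector 1, which lay far under the other 5. The subunits Nsmce3 and Nsmce4a differed by -0.057 ± 0.082 (SE) and 0.057 ± 0.091 (SE), with overlapping groups, so 3 of 4 tested partners were above 0 and 0 passed the test.

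**Figure D2:**
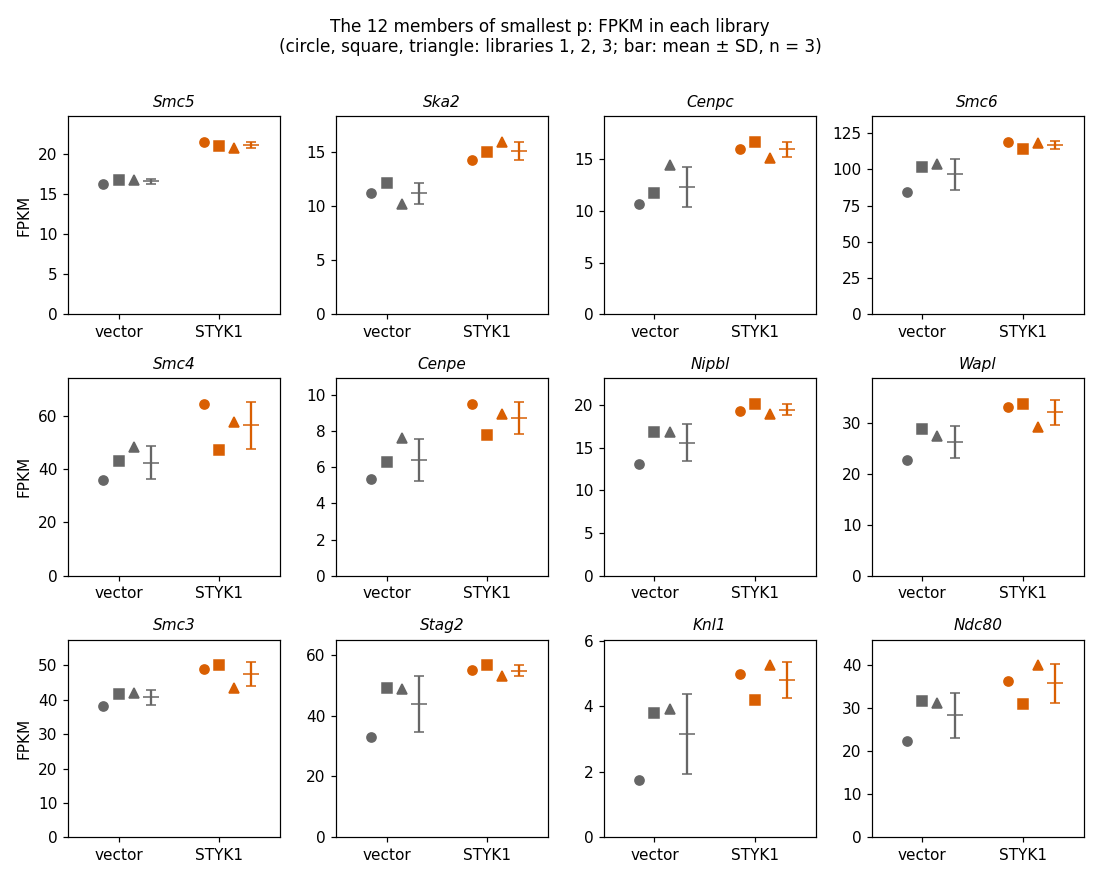
Each panel shows 1 of the 12 members of smallest p, with FPKM from 0 on the y axis, a symbol for each library (circle, square and triangle for libraries 1, 2 and 3) and a bar for the mean ± SD of 3 libraries. Smc5 and Ska2 have groups far apart, with vector 1 among its group, while for Stag2, Knl1 and Ndc80 vector 1 lies well under vector 2 and 3.

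The cohesin genes lay on 1 side of the comparison. All 9 tested cohesin genes had the higher mean in STYK1 libraries, between 0.16 (Smc1a) and 0.34 (Stag2) on the log2 scale, and all 9 remained above 0 without vector 1. In 7 of 9 (77.8%) the STYK1 libraries all lay above the vector libraries, against 13.6% of all tested genes, and Rad21 and Smc1a overlapped. Without vector 1 it was 7 of 9 too, against 17.9% of all genes. Vector 1 was the lowest library for all 9, so leaving it out could not change this count. The 7 became 8 of 9 after scaling to equal sums and 6 of 9 after median centring, against 24.5% and 10.4% of all genes. Cohesin's median log2 difference was 0.22, and 0.12 without vector 1. At an unadjusted p under 0.05 stood 3 of 9, Smc3, Nipbl and Wapl, against 4.95% of all tested genes higher. When STYK1 1 or STYK1 2 was left out it was 0 of 9, against 1.44% and 1.83% of all genes higher. The genes are not independent of each other, since they share the same libraries, and 0 of 9 passed the test.

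Of the ring itself, the ATPase subunit Smc3 (Gene ID 101838362) measured 38.25, 41.7 and 41.98 FPKM in vector 1, 2 and 3, against 48.9, 49.96 and 43.5 in STYK1 1, 2 and 3. Its lowest STYK1 library, STYK1 3, was just above the highest vector library. The log2 difference was 0.22 ± 0.091 (SE) (unadjusted p = 0.0431, limma-trend), and 0.17 without vector 1. Smc1a (Gene ID 101836770), the other ATPase, measured 20.65, 22.8 and 25.5 FPKM with vector and 27.97, 22.95 and 26.25 FPKM with STYK1, and vector 3 lay above STYK1 2. Rad21 (Gene ID 101835161), the kleisin that closes the ring and is cut at anaphase, was the most abundant cohesin gene, with 61.4, 88.7 and 83.7 FPKM with vector and 91.2, 86.4 and 89.7 FPKM with STYK1. Most of its difference came with vector 1: it was 0.21 ± 0.13 (SE) with all libraries and 0.048 without that one.

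The STAG subunits bind the ring and CTCF in alternative cohesin complexes. Stag2 (Gene ID 101825233), the more abundant form here, measured 33.1, 49.04 and 48.85 FPKM in vector 1, 2 and 3, against 54.9, 56.4 and 52.8 in STYK1 1, 2 and 3. Vector 1 was far under all others, and the STYK1 libraries still lay above vector 2 and 3. Its difference was 0.34 ± 0.15 (SE) (unadjusted p = 0.0508, limma-trend), or 0.16 without vector 1. Stag1 (Gene ID 101827321) measured 14.5, 17.7 and 17.2 FPKM with vector and 19.3, 19.9 and 17.9 FPKM with STYK1, also without overlap, at 0.20 ± 0.11 (SE), and 0.12 without vector 1. The ratio of Stag2 to Stag1 was 2.29 in vector 1, while the other 5 libraries gave 2.77 to 2.95.

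The loading and release factors had the same order of libraries. Nipbl (Gene ID 101836378), which loads cohesin and drives loop extrusion, measured 13.1, 16.9 and 16.8 FPKM in vector 1, 2 and 3, against 19.25, 20.1 and 18.9 in STYK1 1, 2 and 3. Wapl (Gene ID 101840118), which releases cohesin from chromatin, measured 22.65, 28.7 and 27.3 FPKM with vector and 33.1, 33.7 and 29.2 FPKM with STYK1. Neither gene's groups overlapped, and the STYK1 means were higher by 1.25-fold and 1.22-fold. For Nipbl the log2 difference was 0.31 ± 0.12 (SE) (unadjusted p = 0.0294, limma-trend) and 0.20 without vector 1. For Wapl it was 0.28 ± 0.11 (SE) (unadjusted p = 0.0381, limma-trend) and 0.18 without vector 1. The ratio of Nipbl to Wapl lay between 0.578 and 0.648 in all libraries. Pds5a (Gene ID 101836209) and Pds5b (Gene ID 101836749), paralogous regulators that act with WAPL, measured 31.1, 39.99 and 39.98 FPKM with vector and 45.1, 41.4 and 40.9 FPKM with STYK1, and 15.7, 22.25 and 22.5 FPKM with vector and 24, 24.8 and 23.5 FPKM with STYK1, in that order. Both had groups without overlap and lay close to vector 2 and 3.

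Partners of cohesin and condensin were looked up from a list of 16 names, of which 13 were found and 11 tested, 10 of them above 0 and 0 passing the test. The cohesion-protecting factor sororin, Cdca5, measured 11.6, 12.55 and 13.95 FPKM with vector and 18.1, 13.03 and 16.3 FPKM with STYK1, and the acetyltransferase Esco1, which modifies SMC3, measured 8.58, 13.7 and 14.2 FPKM with vector and 16.85, 13.25 and 15.3 FPKM with STYK1. Groups overlapped in both. STYK1 2 was the lowest STYK1 library for 8 of the 11, as it was for the cycling genes Mki67 and Top2a, which are on this list too.

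Of the 8 condensin genes, 7 had the higher mean in STYK1 libraries (median log2 difference 0.30, and 0.055 without vector 1). In 0 of 8 did the groups stay apart, against 13.6% of all tested genes with STYK1 higher. After scaling to equal sums it was 3 of 8 (37.5%), against 24.5% of all genes. After median centring it was 0 of 8, against 10.4%. Smc4 (Gene ID 101843991), the ATPase common to both condensins, was the most abundant, with 36.1, 43.04 and 48.1 FPKM in vector 1, 2 and 3, against 64.5, 47.03 and 57.6 in STYK1 1, 2 and 3. STYK1 1 and 3 were above every vector library, while STYK1 2 lay between vector 2 and 3. The difference was 0.40 ± 0.14 (SE) (interval 0.070 to 0.73, unadjusted p = 0.0231, limma-trend), and 0.29 without vector 1. Its partner Smc2 (Gene ID 101844741) measured 13.65, 23.9 and 27.2 FPKM with vector and 27.7, 23.1 and 31.7 FPKM with STYK1, and the ratio of Smc2 to Smc4 ran from 0.379 in vector 1 to 0.565 in vector 3.

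The non-SMC subunits distinguish condensin I, which reaches chromosomes after nuclear envelope breakdown, from condensin II, which is nuclear throughout. Of condensin I, Ncapg was the least abundant condensin gene, with 2.37, 6.22 and 6.74 FPKM with vector and 7.65, 6.60 and 7.39 FPKM with STYK1. Vector 1 was far under every other library there. Ncapd2 measured 19.9, 24.9 and 24.5 FPKM with vector and 26.5, 24.3 and 26.2 FPKM with STYK1, and Ncaph, the kleisin of condensin I, measured 16.3, 21.4 and 26.8 FPKM with vector and 23.9, 16.1 and 22.6 FPKM with STYK1. For Ncaph, STYK1 2 was as low as vector 1, and the difference of -0.034 ± 0.20 (SE) changed sign when STYK1 2, or vector 3, was left out and after scaling to equal sums. Of condensin II, Ncapd3 measured 5.12, 8.77 and 8.54 FPKM with vector and 9.01, 8.19 and 10.1 FPKM with STYK1, and Ncapg2 measured 6.27, 12.05 and 11.8 FPKM with vector and 12.9, 10.9 and 13.3 FPKM with STYK1. Vector 1 was again the lowest for both. Ncaph2, the kleisin of condensin II, measured 39.15, 38.05 and 36.8 FPKM with vector and 36.2, 37.8 and 40.1 FPKM with STYK1. Its libraries spanned a narrow range, and the difference was 0.00048 ± 0.084 (SE), with an interval of -0.19 to 0.19. In FPKM, the condensin I form was the higher one for the D subunits and the lower one for the G and H subunits in every library.

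Of the CENP genes, 17 of 19 were tested, and 12 of the 17 had the higher mean in STYK1 libraries (median log2 difference 0.16, and 0.014 without vector 1). In 2 of 17 (11.8%, near the 13.6% of all tested genes) the groups did not overlap, Cenpc and Cenpe. Cenpc (Gene ID 101823714), which ties CENP-A chromatin to the outer kinetochore, measured 10.7, 11.8 and 14.5 FPKM in vector 1, 2 and 3, against 16.05, 16.7 and 15.2 in STYK1 1, 2 and 3. STYK1 2 was its highest library, unlike in most other kinetochore genes. The difference was 0.36 ± 0.13 (SE) (interval 0.070 to 0.65, unadjusted p = 0.0207, limma-trend), and 0.27 without vector 1. Cenpe (Gene ID 101825954), the kinesin that carries chromosomes to the metaphase plate, measured 5.34, 6.27 and 7.62 FPKM with vector and 9.51, 7.77 and 8.95 FPKM with STYK1. The gap between vector 3 and STYK1 2 was small beside the spread of either group, and the difference of 0.40 ± 0.15 (SE) was 0.30 without vector 1.

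Cenpa (Gene ID 101823197), the centromeric histone, had the highest mean FPKM of the CENP genes, with 47.7, 72.97 and 82.3 FPKM in vector 1, 2 and 3, against 73.6, 56.55 and 79.3 in STYK1 1, 2 and 3. The lowest value was that of vector 1, the next that of STYK1 2, and the highest that of vector 3. Its difference was 0.067 ± 0.21 (SE) with all libraries and -0.16 without vector 1, so no direction can be given. Cenpb, which binds the CENP-B box of centromeric repeats, had a similar level, 83.4, 63.5 and 62.7 FPKM with vector and 61.2, 62.25 and 63.6 FPKM with STYK1. Here vector 1 was the highest library and the other 5 lay within a narrow range. Cenpv was likewise highest in vector 1, with 28.3, 20.55 and 20.7 FPKM with vector and 19.6, 21.5 and 17.5 FPKM with STYK1. It and Cenpb differed by -0.23 ± 0.14 (SE) and -0.15 ± 0.12 (SE), and by -0.080 and -0.016 without vector 1.

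Among the other CENP genes, Cenpf, a large coiled-coil protein that peaks in G2 and mitosis, had the largest difference, 0.48 ± 0.27 (SE), with 5.79, 12.05 and 12.5 FPKM with vector and 15.98, 10.75 and 15.5 FPKM with STYK1. Its groups overlapped, since STYK1 2 lay under vector 2 and 3, and the difference was 0.16 without vector 1. Cenpi, of the inner kinetochore network, and Cenpw, of its histone-fold part, also had vector 1 as the lowest library and STYK1 2 as the next, with 4.29, 9.21 and 9.46 FPKM with vector and 10.4, 7.48 and 10.7 FPKM with STYK1, and 5.31, 9.74 and 11.5 FPKM with vector and 11.4, 8.35 and 13.7 FPKM with STYK1. The levels of Cenph, Cenpk, Cenpl, Cenpm, Cenpo and Cenpt lay between means of 4.25 FPKM (Cenpm) and 11.1 FPKM (Cenph), and all overlapped between the groups. Cenpq measured 20.05, 20.95 and 23.35 FPKM with vector and 21.3, 22.1 and 20.5 FPKM with STYK1, at -0.0078 ± 0.096 (SE), and -0.053 without vector 1. Cenpx, which also works with the Fanconi anaemia helicase FANCM, measured 9.84, 7.94 and 16.4 FPKM in STYK1 libraries, against 10, 15.1 and 13.9 FPKM in vector. Cenpj, which despite its name encodes a centriole protein, had the lowest mean of the tested members, with 1.44, 2.13 and 1.89 FPKM with vector and 2.79, 1.75 and 2.62 FPKM with STYK1. The 2 genes that were not tested were Cenpn, at 0, 0 and 0.20 FPKM in vector 1, 2 and 3, against 1.74, 0 and 0 in STYK1 1, 2 and 3, and Cenpu, at 0.39, 1.58 and 0.54 FPKM in vector 1, 2 and 3, against 0.55, 0 and 0 in STYK1 1, 2 and 3. Each is listed at 0 in some libraries, while their partners in the inner network, such as Cenpl and Cenpq, were not.

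In the outer kinetochore, 8 of 9 tested genes had the higher mean in STYK1 libraries (median log2 difference 0.23), and 4 of 9 were above 0 without vector 1 (median -0.0020). Zwint, which bridges KNL1 to checkpoint proteins, had the largest difference of all 55 members, 0.78 ± 0.36 (SE) (interval -0.054 to 1.61), with 1.68, 5.50 and 6.45 FPKM in vector 1, 2 and 3, against 8.95, 5.79 and 8.70 in STYK1 1, 2 and 3. Its vector 1 value was far under the rest, and STYK1 2 lay between vector 2 and 3. The difference was 0.32 without vector 1. Knl1 (Gene ID 101839954), the scaffold for BUB proteins and the lowest of the outer kinetochore genes, measured 1.74, 3.80 and 3.92 FPKM in vector 1, 2 and 3, against 4.98, 4.18 and 5.25 in STYK1 1, 2 and 3. It was the 1 gene of the 9 (11.1%, against 13.6% of all tested genes) whose groups did not overlap, at 0.53 ± 0.23 (SE) (unadjusted p = 0.0522, limma-trend) and 0.25 without vector 1.

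The NDC80 complex contacts microtubules directly. Ndc80 (Gene ID 101828133), the most abundant outer kinetochore gene, measured 22.4, 31.6 and 31.2 FPKM in vector 1, 2 and 3, against 36.4, 31.1 and 39.98 in STYK1 1, 2 and 3. STYK1 2 lay within the vector range. Nuf2, its coiled-coil partner, measured 5.39, 10.3 and 12.9 FPKM with vector and 11.3, 8.45 and 11.6 FPKM with STYK1, and the ratio of Ndc80 to Nuf2 ran from 2.41 to 4.16. The inner dimer gave 17.5, 13.5 and 17.9 FPKM with vector and 14.1, 13.5 and 17.5 FPKM with STYK1 for Spc24, and 8.85, 12.5 and 16.6 FPKM with vector and 17.4, 10.8 and 15.9 FPKM with STYK1 for Spc25. Spc24 was the 1 outer kinetochore gene with a lower STYK1 mean with all libraries, at -0.11 ± 0.14 (SE), and -0.060 without vector 1, when 5 of the 9 were below 0. Vector 1 was not its lowest library. The ratio of Spc24 to Spc25 was 1.98 in vector 1, while the other 5 libraries gave 0.809 to 1.25. In the MIS12 complex, Dsn1 measured 3.34, 9.16 and 8.89 FPKM with vector and 8.11, 7.03 and 9.65 FPKM with STYK1, Mis12 measured 3.77, 6.21 and 5.93 FPKM with vector and 7.37, 5.18 and 5.73 FPKM with STYK1, and Nsl1 measured 4.24, 5.19 and 6.29 FPKM with vector and 6.29, 6.55 and 5.92 FPKM with STYK1. All overlapped between the groups, and STYK1 2 was the highest library for Nsl1.

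The SKA complex helps NDC80 follow a shrinking microtubule. Ska2 (Gene ID 101843878) measured 11.2, 12.1 and 10.2 FPKM in vector 1, 2 and 3, against 14.3, 15 and 15.9 in STYK1 1, 2 and 3. All STYK1 libraries lay above all vector libraries, vector 1 lay between vector 2 and 3, and STYK1 2 lay between STYK1 1 and 3. Its means were 11.2 ± 0.97 against 15.1 ± 0.81 FPKM (SD, n = 3), 1.35-fold, with a log2 difference of 0.40 ± 0.11 (SE), an interval of 0.16 to 0.65 and an unadjusted p of 0.00497 (limma-trend, rank 54 among all tested genes). Without vector 1 the difference was 0.40. Ska1 and Ska3, the other subunits, did not share this order: Ska1 measured 7.38, 8.88 and 11.8 FPKM with vector and 12.6, 8.30 and 11.4 FPKM with STYK1, and Ska3 measured 2.79, 6.85 and 4.36 FPKM with vector and 6.46, 4.20 and 5.13 FPKM with STYK1. Their differences of 0.19 ± 0.20 (SE) and 0.19 ± 0.26 (SE) were 0.048 and -0.066 without vector 1.

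All 5 spindle checkpoint genes had the higher mean in STYK1 libraries, with a median log2 difference of 0.32. The groups overlapped in each, while 13.6% of all tested genes had STYK1 higher without overlap. After scaling to equal sums, 1 of 5 (20%) did not overlap, against 24.5% of all genes. Without vector 1 the median was 0.047, with 3 of 5 above 0. The checkpoint kinase Bub1 measured 7.48, 12.5 and 12.7 FPKM with vector and 15.1, 12.7 and 14.8 FPKM with STYK1, and Bub1b, which encodes BUBR1, measured 11.3, 19.1 and 22.1 FPKM with vector and 23.99, 17.2 and 23.3 FPKM with STYK1. Ttk, the kinase also called MPS1 that starts checkpoint signalling, was the least abundant, with 5.71, 10.5 and 12.35 FPKM with vector and 13.65, 9.70 and 12.8 FPKM with STYK1. In each of these genes vector 1 was the lowest library and STYK1 2 the lowest STYK1 library. Mad2l1, which encodes the checkpoint effector MAD2, measured 19.02, 28.1 and 30.6 FPKM with vector and 29.98, 24 and 31.55 FPKM with STYK1. Bub3, the abundant partner of BUB1 and BUBR1, measured 42.1, 56.8 and 51.85 FPKM with vector and 52.4, 47.6 and 52.6 FPKM with STYK1, at 0.027 ± 0.12 (SE), and -0.093 without vector 1.

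Centromere and checkpoint partners were taken from a list of 20 names, of which 17 were found and tested. Of these 15 had the higher mean in STYK1 libraries (median log2 difference 0.12), 4 of 17 did without vector 1 (median -0.037), and 0 passed the test. In 1 of 17 (5.88%, against 13.6% of all tested genes) the groups did not overlap, with STYK1 higher: Sgo2, a shugoshin that protects centromeric cohesin, measured 3.92, 6.39 and 8.31 FPKM with vector and 9.38, 8.40 and 10.8 FPKM with STYK1, at 0.59 ± 0.22 (SE) (unadjusted p = 0.0297, limma-trend) and 0.34 without vector 1. Kntc1, of the complex that brings dynein to kinetochores, measured 1.61, 3.83 and 4.74 FPKM with vector and 4.91, 3.76 and 5.58 FPKM with STYK1. Its groups overlapped, with vector 1 far under the other libraries. Aurkb, Birc5, Cdc20 and Plk1 are on this list and on that of cycling genes.

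**Figure D3:**
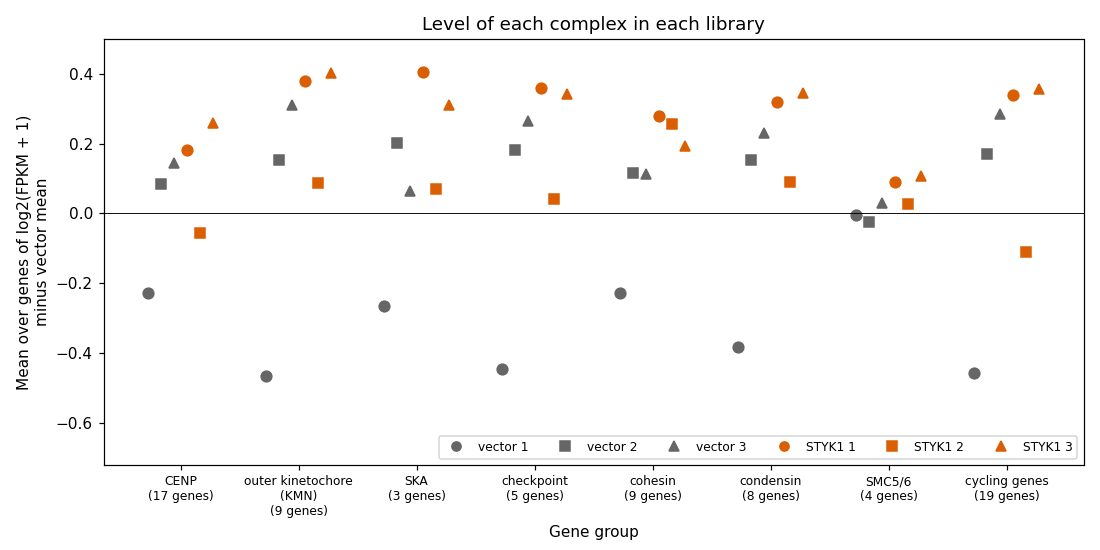
Points give the mean over the tested genes of each complex of log2(FPKM + 1) minus the vector mean, 1 point per library, with the 19 cycling genes at the right. In cohesin the 3 STYK1 points (0.28, 0.26 and 0.19) lie above vector 2 and 3 (0.12 and 0.11), whereas in the outer kinetochore, the checkpoint and condensin STYK1 2 (0.088, 0.041 and 0.089) lies under vector 2 and 3, as in the cycling genes.

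Within the STYK1 group, STYK1 2 differed between the complexes. It was the lowest STYK1 library for 13 of 17 CENP genes, 8 of 9 outer kinetochore genes, 2 of 3 SKA genes, 5 of 5 checkpoint genes, 7 of 8 condensin genes and 3 of 4 SMC5/6 genes. In cohesin this held for 2 of 9, Smc1a and Rad21, and over all tested genes for 30.9%. Relative to the mean of STYK1 1 and 3, the median of STYK1 2 in log2 units was -0.30 in CENP, -0.29 in outer kinetochore and -0.38 in SKA genes. It was -0.35 in checkpoint and -0.22 in condensin genes, against 0.067 in cohesin genes and -0.079 in SMC5/6 genes. The cycling genes lay at -0.47. Vector 1 was the lowest of all 6 libraries for 9 of 9 cohesin genes, 8 of 9 outer kinetochore genes, 5 of 5 checkpoint genes, 6 of 8 condensin genes, 2 of 3 SKA genes and 11 of 17 CENP genes. Of the 4 SMC5/6 genes it was the lowest library for 2 and the highest for 2. Genes of a complex share libraries, so these counts describe the 6 libraries and carry no test.

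**Figure D4:**
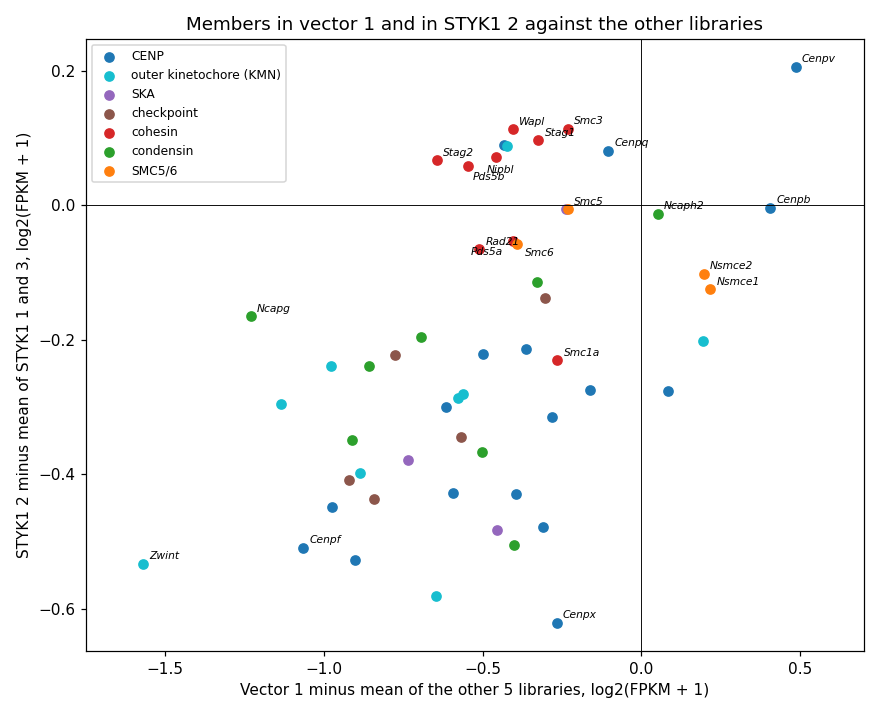
Each point is a tested member, coloured by complex. The x axis gives vector 1 minus the mean of the other 5 libraries and the y axis STYK1 2 minus the mean of STYK1 1 and 3, both on log2(FPKM + 1). Cohesin genes lie at negative x and, except for Smc1a at -0.23, between -0.065 and 0.11 on y, while Zwint, Cenpf and most kinetochore genes are negative on both axes, and Cenpv, Cenpb, Nsmce1 and Nsmce2 are at positive x.

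Ratios of FPKM were compared between the groups for 15 pairs of members, all within a complex except for Smc3 to Smc4 and Smc3 to Smc5. None separated the groups, and none passed an exact two-sided permutation test on log2 ratios (0 of 15, p between 0.2 and 1, Benjamini-Hochberg adjusted p of at least 0.818, with 0.1 the smallest p that 3 against 3 allow). The ratio of Smc1a to Smc3 was 0.564 ± 0.0369 in vector and 0.545 ± 0.0758 in STYK1 libraries (SD, n = 3), and that of Pds5a to Pds5b was 1.85 ± 0.111 and 1.76 ± 0.107. Across complexes, Smc3 to Smc4, cohesin against condensin, was 1.06, 0.969 and 0.872 for vector 1, 2 and 3, and 0.758, 1.06 and 0.755 for STYK1 1, 2 and 3, with STYK1 2 as high as vector 1. Close paralogs such as Stag1 and Stag2, or Pds5a and Pds5b, can share reads, and the treatment of such reads is unknown, so their single values are uncertain.

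Levels of the members covered a 50.8-fold range of mean FPKM among the 55 tested. Of the 57 found, 6 reached a mean level of 50 FPKM, Smc6, Rad21, Cenpa, Cenpb, Nsmce1 and Bub3, and 22 reached 20 FPKM. By complex, the median of the mean levels of the genes found was 46.2 FPKM in SMC5/6, 29.1 in cohesin, 22.8 in condensin, 19.5 in checkpoint, 10.1 in SKA, 8.985 in CENP and 7.70 in outer kinetochore genes, against 15.8 FPKM over all tested genes. The SMC ATPases themselves followed the order Smc6, Smc4, Smc3, Smc2, Smc1a, Smc5 by mean FPKM. Of these, Smc4 and Smc3 exchanged places between libraries, as did Smc1a and Smc2, and in vector 1 Smc2 lay below Smc5 as well.

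**Figure D5:**
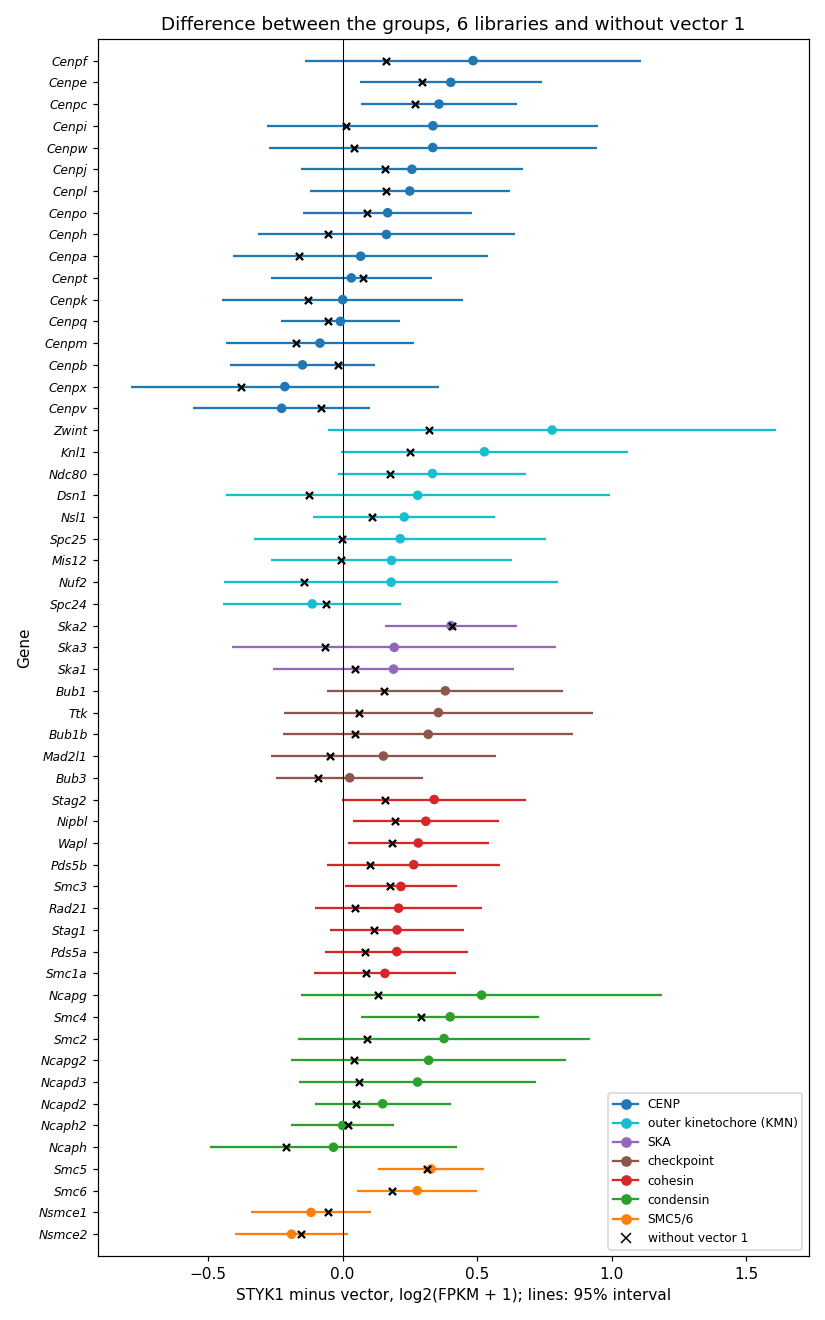
For each tested member, the coloured point is the STYK1 minus vector difference on log2(FPKM + 1) with all libraries, the line its 95% interval from limma-trend and the cross the difference without vector 1. The intervals of 9 members, among them Smc5, Ska2 and Cenpc, lie above 0 before adjustment, and the crosses of most outer kinetochore and checkpoint genes lie near 0, with Zwint at 0.32 and Knl1 at 0.25.

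How the libraries were scaled moved the members' counts but not their side, while the larger side over all tested genes changed with the scaling. At an unadjusted p under 0.05, the members split 9 higher and 0 lower with the deposited values, 12 and 0 after scaling to equal FPKM sums, 8 and 0 after median centring and 10 and 0 after quantile normalization. All tested genes split 568 and 560, 1269 and 216, 402 and 762, and 474 and 570 in the same order. With equal sums the all-gene median was 0.12 instead of 0.014 and that of the members 0.32 instead of 0.22.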

How the data were processed

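The deposited values are FPKM per gene and library, per the file headers, with 2 decimals and 1 library per file; the submitters' processing notes name Bowtie 0.12.2 and the mouse builds mm8 and mm9, with no role. No source used here names the annotation, the use of strand or the FPKM tool. NCBI Gene IDs were matched to the RefSeq gene table of BCM_Maur_2.0 for names only (15049 of 16078), and no coordinates were used.

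Limma-trend (limma 3.58.1 with robust moderation, R 4.3.3) was run on unscaled log2(FPKM + 1) of the 11464 genes that averaged 1 FPKM or more in either group, with Benjamini-Hochberg adjustment over all of them and a call at an adjusted p under 0.05. The fit was tested on simulated data with noise drawn independently for each gene and library. Deviations shared by many genes of a library, as in vector 1, were not part of that test. Members and lists were chosen with earlier results of these data known. Every member could be named; per-library values went to the 12 of smallest p, the extremes of level in each complex, Cenpa, paralog pairs and untested members, and up to 3 partners of smallest p per list, of which 1 is not reported here. Members beyond that rule were described after their values were seen. Alternatives were pseudocounts of 0.1 and 0.5, no minimum or 5 FPKM, 3 scalings, non-robust moderation, a replicate block, each library left out and, added after seeing the data, array quality weights. Promoter motifs were planned, but no promoter sequence was used here.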

Additional observations from a re-analysis of the deposited data

How the results depend on the processing

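With each library left out in turn, 0 to 2 genes were called over all genes and 0 of the members, and the members' median log2 difference ran from 0.059 to 0.33 (limma-trend; Styk1 from 0.21 to 0.33). With array quality weights, an alternative chosen after seeing the data, which gave vector 1 a weight of 0.129, 24 genes were called (0.209%), 0 of them members, and 16 members were at an unadjusted p under 0.05, against 9, while all genes at that p went from 568 higher and 560 lower to 1202 and 1163. Under the other alternatives 0 genes were called, and the smallest adjusted p of any member ran over all settings from 0.0573 (weights) to 0.803 (without STYK1 1). Among the genes chosen by the naming rule, signs changed as follows: after median centring Bub3 was at -0.0014 and Ncaph2 at -0.028, after scaling to equal sums Ncaph was at 0.073 and Nsmce3 at 0.051, and with weights Bub3 was at -0.078, Cenpa at -0.046, Ncaph2 at -0.011 and Ska3 at -0.013. Leaving out libraries, Bub3 ran from -0.093 to 0.12, Cenpa from -0.16 to 0.23, Ncaph from -0.21 to 0.13, Ncaph2 from -0.038 to 0.034 and Ska3 from -0.066 to 0.46. Further members that changed sign without vector 1 were Cenph, Cenpk, Nuf2, Spc25, Dsn1, Mis12 and Mad2l1. The causes were not tested.

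The titles number the libraries 1 to 3 in both groups, but same-numbered libraries did not deviate together from their group means. Correlations of these deviations were -0.27, -0.16 and 0.11 over all tested genes. Among the STYK1 libraries, the deviations of STYK1 2 correlated most with those of vector 1 (0.28). A replicate block with 1 library of each group per number cannot move the differences, so the members' median (0.22) and Styk1 (0.28) were unchanged. With it, 10 members were higher at an unadjusted p under 0.05 and 0 lower, against 450 and 381 of the 11464 tested genes. Called were 0 members and 0 genes. Depth is unknown, so how far it limits genes of few FPKM, such as Cenpn and Cenpu, cannot be given.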

Other observations

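The germline counterparts of cohesin that were found, Rec8 and Rad21l1, were near 0 in these cells. Rec8, the meiotic kleisin, stood at 0, 0.08 and 0 FPKM with vector and 0, 0 and 0 FPKM with STYK1, and Rad21l1 at 0, 0 and 0.04 FPKM with vector and 0.04, 0 and 0.04 FPKM with STYK1. Eid3, a paralog of Nsmce4a, stood at 0.36, 0.36 and 0.60 FPKM with vector and 0.72, 0.98 and 1.17 FPKM with STYK1, and its groups did not overlap, but it lay below the minimum level and was not tested. Mad1l1, the partner that anchors MAD2 at kinetochores, was scattered in both groups, with 2.91, 0.40 and 1.63 FPKM with vector and 0, 0.81 and 2.41 FPKM with STYK1, beside Mad2l1 at 19.02 to 31.55 FPKM.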
